A study of Mus musculus with 12 samples.

Results

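Microglia that had lost HDAC3 without injury were set directly against microglia of wild-type mice after stroke. The comparison set 3 miKO-Sham libraries against 3 WT-tFCI libraries, 6 of the 12 sequenced. All 12 libraries were fitted together, with sequencing batch as a term in the fit. The question was which parts of the activated state seen after stroke were also at that level after loss of HDAC3 alone, and which were at that level after injury but not after loss alone. The 3 WT-Sham libraries served as the reference level. Every library held RNA of CD45int CD11b+ cells sorted from mouse brain by flow cytometry, and each pooled cells from 3 to 4 hemispheres of male mice. Both genotypes carried floxed *Hdac3* alleles. WT mice had no CreER, whereas HDAC3-miKO mice (microglial knockout) carried tamoxifen-inducible CreER in 1 *Cx3cr1* allele, so that they also had 1 intact *Cx3cr1* allele fewer. Tamoxifen was given on 5 days at 6 to 8 weeks of age and surgery followed at least 1 month later. Transient focal cerebral ischemia (tFCI) was produced by 60 min of middle cerebral artery occlusion, and cells were taken on day 3, while sham mice had anesthesia and exposure of the artery. *Cx3cr1* also drives Cre in other resident macrophages of the brain, genotype and injury both differ between the groups compared, and a pooled level cannot tell fewer cells of a kind from less RNA per cell.

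HDAC3 is a class I histone deacetylase that acts as the catalytic subunit of the NCoR and SMRT corepressor complexes, which nuclear receptors and other transcription factors recruit to keep target genes low. In macrophages it is known as a repressor of lipid-handling genes controlled by LXR and as a regulator of inflammatory gene expression. After ischemia, microglia are known to lose part of their homeostatic gene set, to divide, and to raise genes for lipid handling, lysosomes, chemokines, interferon response and matrix.

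Counts on genes ran from 7697864 to 8349295 in the 6 libraries, and 16451 genes passed the filter on low counts. The labelled cell type was checked against its markers. The microglial markers *P2ry12*, *Tmem119*, *Sall1*, *Fcrls* and *Siglech* summed to between 9041 and 10284 CPM (counts scaled to a normalized library of 1000000) in miKO-Sham and between 6820.4 and 7619 CPM in WT-tFCI, against at most 199.6 CPM for 7 monocyte markers, 307 CPM for 7 markers of border-associated macrophages and 367 CPM for 8 neutrophil markers in any of the 6 libraries. Some libraries stood apart. miKO-Sham replicates 1 and 2 were nearer to each other than any other replicate pair of the series, with a chi-square of 2.82 per degree of freedom against 3.65 to 76.6, and replicate 2, labelled as batch 2, had a correlation across genes with the difference of batch 1 from batch 2 of 0.16, whereas the other batch 2 libraries lay between -0.08 and -0.47. If these were a pair of libraries of the same cells, miKO-Sham would hold 2 independent samples. WT-tFCI replicate 1, the library of batch 1, held 169 CPM of 6 endothelial markers against 60.6 and 60.2 CPM in the other WT-tFCI libraries. miKO-Sham replicate 3 had the lowest *Apoe* and the highest sum of border-associated macrophage markers of its group. WT-Sham replicate 1 held 815 CPM of neutrophil markers against 76.9 and 49.9 CPM in the other WT-Sham libraries. These markers summed to 336, 350 and 367 CPM in miKO-Sham and 146, 199 and 212 CPM in WT-tFCI. Of 7 tested, 0 were called in either direction, but 5 were called higher in miKO-Sham without WT-Sham replicate 1. In the fit of the compared groups alone, 6 were tested and 4 called higher in miKO-Sham. Without WT-tFCI replicate 1, 1 was called higher in WT-tFCI. Their part in the results was not tested. The direct comparison was also fitted without each library, and where 1 library moved a fold change or a list's count given here by more than 1.5 times, the value without it is given too.

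The alleles changed in miKO mice came first. *Hdac3* had 25.8, 25 and 20.9 CPM in miKO-Sham replicates 1 to 3 and 54.0, 52.9 and 43.9 CPM in WT-tFCI. Every miKO-Sham library lay below every WT-tFCI library, at a log2 fold change of -1.07 ± 0.16 (SE, n = 3 per group; edgeR's quasi-likelihood test, Benjamini-Hochberg adjusted p = 0.000167); here and below, a positive value means higher in miKO-Sham and a negative value higher in WT-tFCI. The counts cover all exons of *Hdac3*, floxed or not. *Cx3cr1*, the fractalkine receptor of microglia, had 1092, 1052 and 1446 CPM in miKO-Sham and 1449.7, 1554 and 1579 CPM in WT-tFCI, against 3291, 3921 and 4373 CPM in WT-Sham. It was called lower than in WT-Sham in both groups, where miKO-Sham has the replaced allele. miKO-Sham and WT-tFCI were not called apart, with an interval of the direct log2 fold change from -0.72 to 0.01.

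More genes were higher in WT-tFCI than in miKO-Sham. Calls needed an adjusted p below 0.05 and a log2 fold change past 0.58 in either direction. The direct comparison called 4927 of 16451 genes (29.9%), of which 1914 (11.6%) were higher in miKO-Sham and 3013 (18.3%) were higher in WT-tFCI. Of the 4927, 4801 had groups that did not overlap after adjustment for batch, which held for 8413 (51.1%) of all genes tested. In 401 of the 3013 genes higher in WT-tFCI no miKO-Sham library had more than 3 counts, so that no fold is given for these. Against the WT-Sham reference, WT-tFCI had 3440 genes higher (20.9%) and 1925 lower (11.7%), and miKO-Sham had 1411 higher (8.58%) and 1119 lower (6.8%). These comparisons share libraries with each other and with the direct one, so their values are set side by side and not tested against each other. For 6891 genes (41.9%) the 95% interval of the direct log2 fold change lay within -1 and 1, that is, the groups were within 2-fold of each other. The library kit does not mark strand, and 5568 of the genes tested, 1525 of them called, have exons that overlap those of a gene on the other strand. Reads in the shared stretch cannot be told apart from that gene's. Among genes named below such an overlap holds for *Cx3cr1*, *P2ry12*, *Cd9*, *Fn1*, *Ch25h*, *Cebpa*, *Irf5*, *Bhlhe40*, *Nek2*, *Cxcl10*, *Il1b*, *Tnfaip2*, *Tnfsf9*, *Usp18*, *Nlrc5*, *Ctsz*, *Ndrg1*, *Cox6c*, *G6pdx*, *Hspa1a*, *Dusp1*, *Col4a1*, *Mmp12*, *Anxa2*, *Klhdc8b* and *Cass4*. Without miKO-Sham replicate 2 the direct comparison called 5157 genes, and with that library entered as batch 1, an alternative chosen after seeing the data, 5744. A fit of the miKO-Sham and WT-tFCI libraries alone tested 14635 genes and called 4531, of which 1953 were higher in miKO-Sham and 2578 higher in WT-tFCI.

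**Figure D1:**
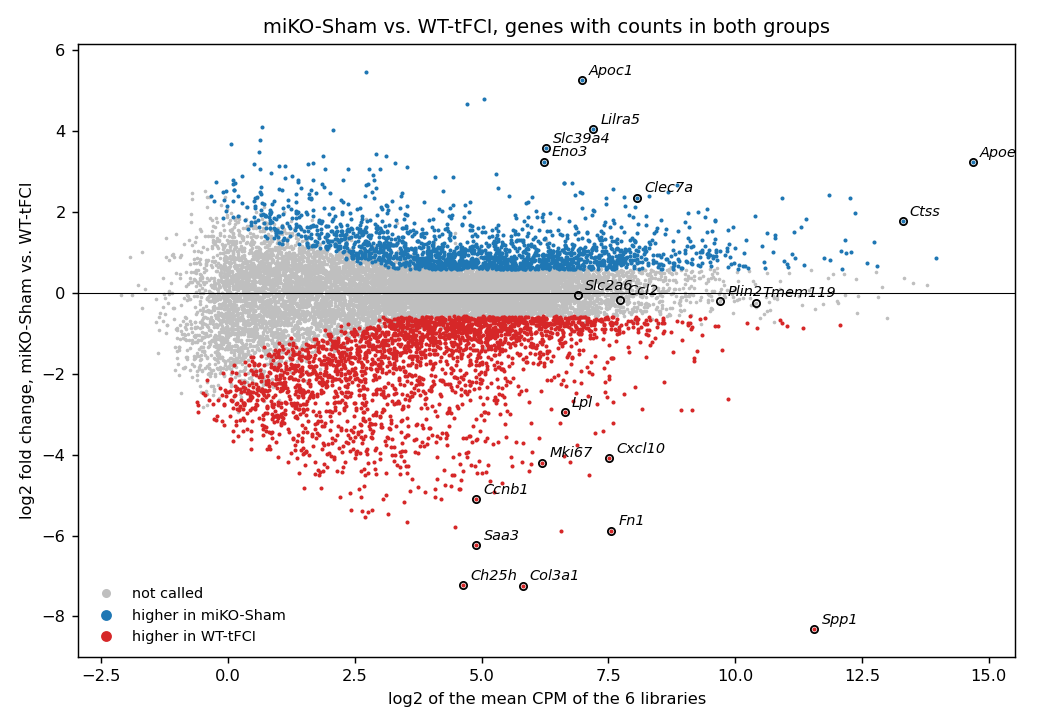
Log2 fold change of miKO-Sham vs. WT-tFCI (vertical axis) against the log2 of the mean CPM of the 6 libraries (horizontal axis) for the 15854 genes that had over 3 counts in some library of both groups. Blue points were called higher in miKO-Sham (1897) and red points higher in WT-tFCI (2612), grey points were not called, and circled genes are named. *Spp1* sits lowest among the circled genes and *Apoc1* highest.

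At the ends of the ranking, *Apoc1* was furthest to the miKO-Sham side and *Spp1* furthest to the WT-tFCI side. The genes named here were the 8 furthest out in each direction among called genes with an established symbol, groups that did not overlap and, in each group, a library of more than 3 counts, so that their size is the way they were picked. *Apoc1*, an apolipoprotein, had 338, 371 and 26.9 CPM in miKO-Sham and 6.94, 5.77 and 7.43 CPM in WT-tFCI (log2 fold change 5.25 ± 0.89). All miKO-Sham libraries were above all WT-tFCI libraries, but replicates 1 and 2 were more than 10 times as high as replicate 3, and the log2 fold change was 4.46 without replicate 1 and 5.91 without replicate 3. Its neighbour on chromosome 7, *Apoc4*, showed the same order, with 17.1, 20.9 and 3.20 CPM in miKO-Sham and 1.08, 1.73 and 1.22 CPM in WT-tFCI. *Lilra5*, a receptor of the leukocyte immunoglobulin-like family, had 314, 299 and 216 CPM in miKO-Sham against 14.5, 21.2 and 16.1 CPM in WT-tFCI, with 19.7, 27.8 and 28.2 CPM in WT-Sham. *Slc39a4*, a zinc importer, had 154, 158 and 113 CPM in miKO-Sham and 12.8, 10.5 and 12.3 CPM in WT-tFCI, and *Eno3*, the muscle form of enolase, had 121, 113 and 174 CPM in miKO-Sham and 17.2, 12.3 and 13.6 CPM in WT-tFCI. In these last 3 genes WT-tFCI was not called higher than WT-Sham, so the high level belonged to the knockout libraries. *Syt8*, *Olfr1330* and *Zkscan7* (ENSMUSG00000111063.1, an entry that overlaps *A530083I20Rik* on the other strand) completed the 8, with at most 10.1 CPM in any of the 9 libraries of the 3 groups, and the value of *Zkscan7* moved from 4.09 to 7.98 without WT-tFCI replicate 1 and to 3.49 without replicate 2.

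On the other side, *Spp1*, which encodes the secreted phosphoprotein osteopontin, had 4927, 6827 and 6336 CPM in WT-tFCI against 10.7, 6.52 and 42.8 CPM in miKO-Sham and 3.13, 1.34 and 3.49 CPM in WT-Sham. It was 317-fold higher in WT-tFCI than in miKO-Sham (log2 fold change -8.31 ± 0.61; edgeR, Benjamini-Hochberg adjusted p = 1.95e-07). miKO-Sham was called higher than WT-Sham, so that *Spp1* was raised in both states but to levels that were far apart. Without miKO-Sham replicate 3, the highest of its group, the value was -9.32. *Ch25h*, the enzyme that makes 25-hydroxycholesterol, had 43.3, 50.4 and 54.6 CPM in WT-tFCI against 0.139, 0.555 and 0.256 CPM in miKO-Sham, and *Saa3*, an acute-phase protein, had 37.6, 78.7 and 60.1 CPM in WT-tFCI against 0.278, 0.416 and 1.67 CPM in miKO-Sham. *Chst2*, a sulfotransferase, had 50.3, 35.4 and 45.7 CPM in WT-tFCI against 0.139, 0.971 and 1.15 CPM in miKO-Sham and was also called lower in miKO-Sham than in WT-Sham. At these low counts in the knockout the size of the fold was loose: it moved from -7.23 to -7.82 for *Ch25h* without miKO-Sham replicate 2, from -6.24 to -7.20 for *Saa3* without replicate 3 and from -5.80 to -5.11 for *Chst2* without replicate 1. The remaining genes, *Col3a1*, *Dcn*, *Fn1* and *Emp1*, are given with the matrix genes.

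The activated microglial signature was split. The homeostatic list held 24 genes, all tested, that mark unstimulated microglia, and 12 of them were higher in miKO-Sham and 2 higher in WT-tFCI (median log2 fold change 0.57, against -0.06 over all genes tested). Against WT-Sham, 18 of the 24 were lower and 0 higher in WT-tFCI (median -0.98), and 9 were lower and 2 higher in miKO-Sham (median -0.47). *P2ry12*, the purinergic receptor by which microglia sense ADP, had 1903, 1838 and 2338 CPM in miKO-Sham and 997, 903 and 825 CPM in WT-tFCI, with 2358, 3059 and 3399 CPM in WT-Sham. The miKO-Sham libraries lay above all WT-tFCI libraries (log2 fold change 1.14 ± 0.21; edgeR, Benjamini-Hochberg adjusted p = 0.000672) and were not called different from WT-Sham. *P2ry13* (log2 fold change 1.79), a further purinergic receptor, *Entpd1* (1.74), which encodes the ectonucleotidase CD39, and *Sall1* (0.74), a transcription factor of microglial identity, went the same way.

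Other homeostatic genes were low in both states. *Tmem119*, a surface marker of microglia, had 997, 973 and 1769 CPM in miKO-Sham and 1420.2, 1434 and 1529 CPM in WT-tFCI, against 3264, 3594 and 3883 CPM in WT-Sham. The groups overlapped, with miKO-Sham replicate 3 above the WT-tFCI libraries and replicates 1 and 2 below them, and the interval of the log2 fold change ran from -0.68 to 0.18. *Siglech*, *Selplg*, *Crybb1* and *Mef2c* likewise fell after stroke against WT-Sham and lay within 2-fold between miKO-Sham and WT-tFCI. *Olfml3*, a secreted matrix protein, was among the 2 members higher in WT-tFCI.

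The injury-associated list held genes raised in microglia of diseased or injured brain. Of 28, 27 were tested. Against WT-Sham, 20.9% of all genes tested were higher in WT-tFCI and 8.58% higher in miKO-Sham. In this list 26 were higher in WT-tFCI (median log2 fold change 2.47) and 22 higher in miKO-Sham (median 1.93). Directly compared, 14 were higher in WT-tFCI and 5 higher in miKO-Sham (median -0.76). The 5 were *Apoe*, *Clec7a*, *Cd9*, *Trem2* and *Timp2*. *Apoe*, the main apolipoprotein of glia, had 64078, 65549 and 12774 CPM in miKO-Sham, 4658, 5386 and 5129 CPM in WT-tFCI, with 1512, 978 and 897 CPM in WT-Sham. Each miKO-Sham library was above each WT-tFCI library, with replicate 3 at less than 1/4 of the other replicates (log2 fold change 3.22 ± 0.50; edgeR, Benjamini-Hochberg adjusted p = 0.000196). *Clec7a*, the beta-glucan receptor Dectin-1, had 546, 540.2 and 258 CPM in miKO-Sham, 90.8, 93.9 and 78.3 CPM in WT-tFCI, with 20.6, 16.2 and 15.9 CPM in WT-Sham. *Cd9*, a tetraspanin, was more even over the knockout libraries, with 3534, 3461 and 3141 CPM against 1224, 1201 and 1158 CPM in WT-tFCI (log2 fold change 1.50 ± 0.15).

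Genes of the same list that stayed far below the stroke level in miKO-Sham included *Spp1* and *Ch25h*, given above, and genes for fatty acid and lipoprotein handling. *Fabp5*, a fatty acid binding protein, had 206, 78.7 and 69.3 CPM in WT-tFCI against 3.89, 8.05 and 2.82 CPM in miKO-Sham (log2 fold change -4.40 ± 0.38, -5.23 without miKO-Sham replicate 2). *Lpl*, lipoprotein lipase, had 167, 185 and 177 CPM in WT-tFCI against 22.6, 21.5 and 24.3 CPM in miKO-Sham and 7.81, 13.8 and 12.1 CPM in WT-Sham, with no overlap between the first 2 groups (log2 fold change -2.95 ± 0.22). *Gpnmb*, a transmembrane glycoprotein of lipid-laden macrophages, had 173, 33.0 and 36.9 CPM in WT-tFCI against 6.80, 6.94 and 6.40 CPM in miKO-Sham. Its level in WT-tFCI replicate 1 was more than 4 times that of the other replicates, and the within-batch log2 differences were -4.62 in batch 1 and -2.35 in batch 2. The fitted value moved from -3.24 to -2.57 without it. *Csf1*, *Igf1*, *Lgals3*, *Cd63*, *Ctsl*, *Ank*, *Ccl6*, *Anxa5* and *Vim* were the other members higher in WT-tFCI. Close between the groups were *Cst7*, the cystatin F gene, with 393, 394 and 197 CPM in miKO-Sham, 213, 258 and 237 CPM in WT-tFCI, with 11.8, 8.85 and 13.6 CPM in WT-Sham, and *Axl*, a receptor for apoptotic cells, with 101.5, 89.5 and 72.2 CPM in miKO-Sham, 72.2, 76.4 and 83.2 CPM in WT-tFCI, with 14.1, 8.96 and 11.8 CPM in WT-Sham. For *Cst7* and *Axl* the groups overlapped, and the intervals of the direct log2 fold change ran from -0.01 to 0.97 and from -0.22 to 0.59.

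**Figure D2:**
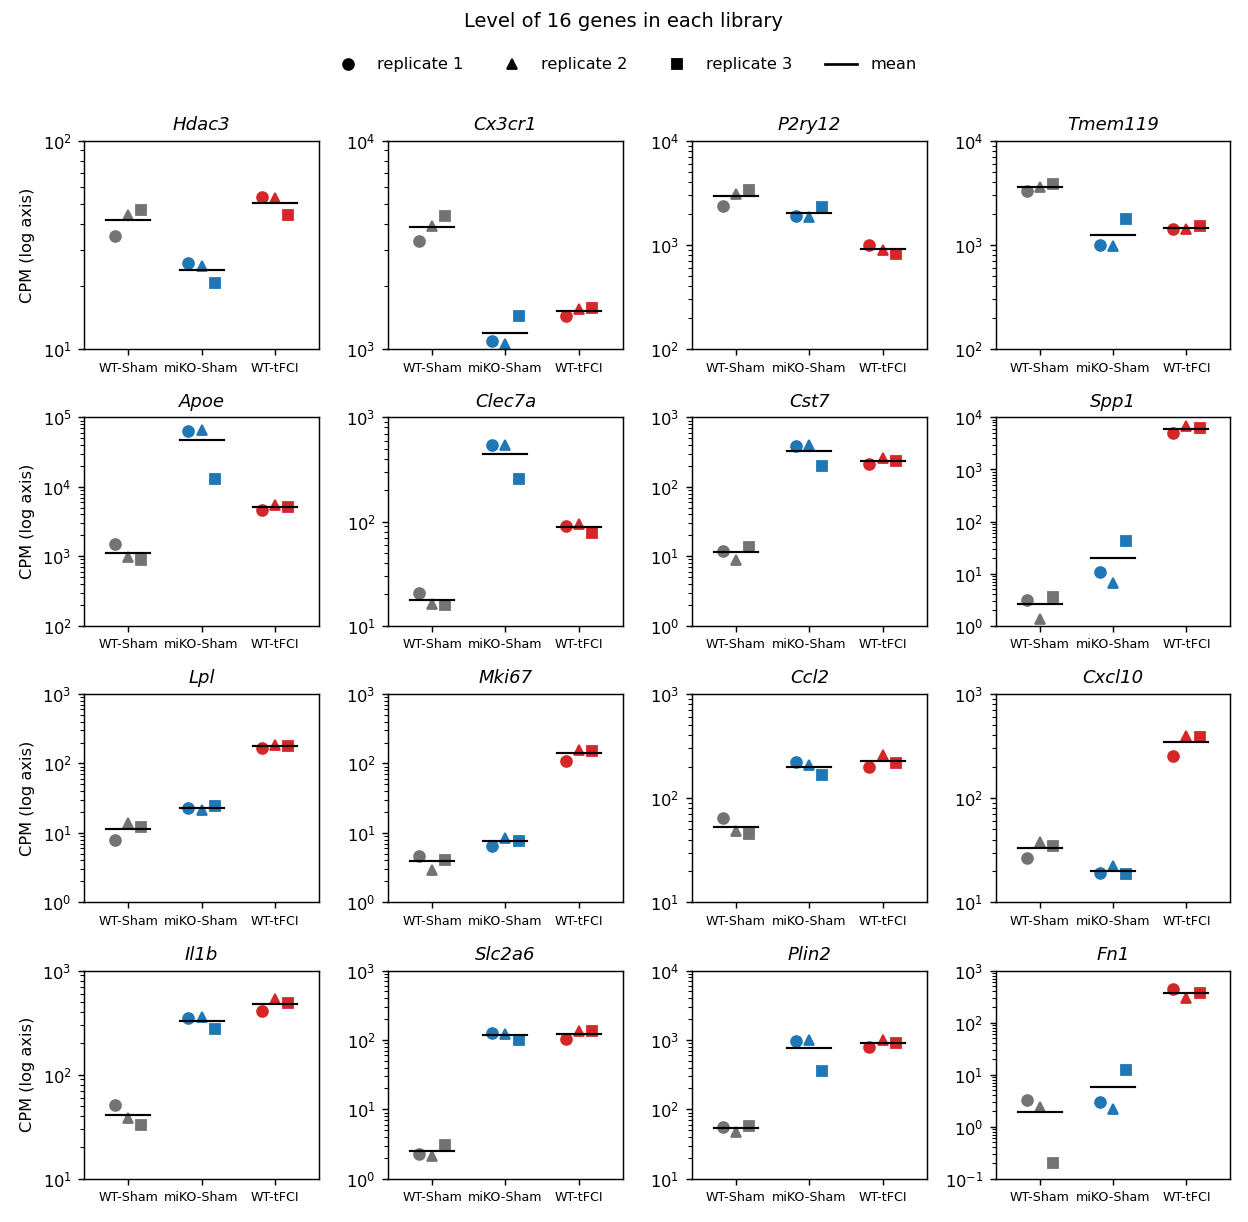
CPM on a log axis of 16 genes in the 3 libraries of WT-Sham (grey), miKO-Sham (blue) and WT-tFCI (red); circles, triangles and squares are replicates 1, 2 and 3 and bars are group means. *Apoe* and *Clec7a* are highest in miKO-Sham, *Spp1*, *Lpl*, *Mki67*, *Cxcl10* and *Fn1* are highest in WT-tFCI, and *Cst7*, *Ccl2*, *Slc2a6* and *Plin2* overlap between the 2 groups above WT-Sham.

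Transcription factors of the lineage split without a common direction. Of 20, 19 were tested, 5 were higher in miKO-Sham and 6 higher in WT-tFCI (median -0.14). *Cebpa*, a myeloid factor, had 489, 480.2 and 274 CPM in miKO-Sham and 117, 129.6 and 135 CPM in WT-tFCI, and *Irf8*, required for microglial development, had 1071, 1037 and 1061 CPM in miKO-Sham and 485, 524 and 526 CPM in WT-tFCI. *Irf5*, *Maf* and *Mitf* were also higher in miKO-Sham. *Nr4a1*, an orphan nuclear receptor induced by activation, had 528, 444 and 548 CPM in WT-tFCI against 71.6, 63.8 and 73.0 CPM in miKO-Sham and 185, 144 and 121 CPM in WT-Sham, above the reference after stroke and below it after loss of HDAC3, with both calls passing. *Bhlhe40* (log2 fold change -3.53 ± 0.34, -2.92 without miKO-Sham replicate 1), *Cebpb*, *Stat3*, *Hif1a* and *Tfec* were higher in WT-tFCI, where *Tfec*, at no more than 3.53 CPM, was not called without WT-tFCI replicate 2 or 3 or miKO-Sham replicate 3. *Spi1*, which encodes the macrophage factor PU.1, had 436, 454 and 485 CPM in miKO-Sham and 364, 361 and 385 CPM in WT-tFCI and was not called.

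The genes of cell division separated the states. All 60 genes of the mitosis list were tested, 56 were higher in WT-tFCI and 1 higher in miKO-Sham (median log2 fold change -3.59), against 18.3% and 11.6% of all genes tested. Against WT-Sham, 56 were higher in WT-tFCI with 0 lower (median 4.05), and in miKO-Sham 10 were higher and 3 lower (median 0.56). *Mki67*, the gene of the proliferation antigen Ki-67, had 109.9, 157 and 151 CPM in WT-tFCI against 6.53, 8.46 and 7.68 CPM in miKO-Sham and 4.69, 2.91 and 4.0 CPM in WT-Sham. *Top2a*, topoisomerase II alpha, had 105, 135 and 122 CPM in WT-tFCI against 8.75, 8.60 and 6.28 CPM in miKO-Sham and 3.01, 3.70 and 3.80 CPM in WT-Sham. For both genes every WT-tFCI library was more than 10 times as high as any miKO-Sham library, while miKO-Sham was called above WT-Sham. *Ccnb1*, the mitotic cyclin B1, had 50.1, 65.2 and 57.9 CPM in WT-tFCI against 1.94, 1.25 and 1.79 CPM in miKO-Sham (log2 fold change -5.10 ± 0.24; edgeR, Benjamini-Hochberg adjusted p = 3.17e-09). *Birc5*, the survivin gene, had 62.6, 83.9 and 75.2 CPM in WT-tFCI against 2.08, 2.64 and 2.56 CPM in miKO-Sham, and the mitotic kinase gene *Nek2* had 15.9, 22.0 and 27.2 CPM in WT-tFCI against 0.278, 1.11 and 0.384 CPM in miKO-Sham. *Ccnb1*, *Birc5* and *Nek2* were not called between miKO-Sham and WT-Sham. The member higher in miKO-Sham was *Pttg1*, the securin that holds back chromatid separation, with 66.8, 62.6 and 52.9 CPM in miKO-Sham and 38.1, 40.7 and 42.0 CPM in WT-tFCI. Its log2 fold change of 0.58 lay at the edge of the threshold, and 8 of 20 alternatives did not call it, among them those without miKO-Sham replicate 2 and without WT-tFCI replicate 1.

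Because the mitosis genes moved together, their promoters were read for letters known from late cell cycle genes. Windows of 300 bases, from 250 before to 50 after the RefSeq start on GRCm38.p6, were found for 51 of the 60 genes. CHR letters (TTTGAA or TTTAAA, both strands) were in 37 of the 51 (72.55%), CCAAT letters (CCAAT, both strands) in 36 (70.59%) and both kinds in 30 (58.82%). Over 27025 promoter windows of the same length the shares were 27.89%, 37.78% and 10.85%, and over the windows of 11011 genes tested they were 19.59%, 38.23% and 7.756%. Among 41 of 50 DNA replication genes with a window, CHR letters were in 21.95%, CCAAT letters in 60.98% and E2F letters (TTCCCGC, with TTGGCGC and also TTTCGCG, both strands) in 58.54%, against 7.648% of all windows and 13.14% of those of genes tested for the last. The motifs can overlap, since ATTGG on the plus strand is CCAAT on the other and can share letters with TTGGCGC. A match is a description and not a bound site. The windows of *Ccnb1*, *Birc5*, *Nek2*, *Mki67* and *Top2a*, which were far higher in WT-tFCI, are shown with that of *Pttg1*, the member called the other way, 5′ to 3′ along the gene, with CHR and CCAAT letters of either strand in capitals. The *Birc5* window held CHR but no CCAAT letters, that of *Nek2* CCAAT but no CHR letters, and that of *Pttg1* neither kind, which says only that they are not in these stretches. The windows lie at chr13:100786437-100786736 on the minus strand for *Ccnb1*, chr11:117848987-117849286 on the plus strand for *Birc5*, chr1:191821223-191821522 on the plus strand for *Nek2*, chr7:135716330-135716629 on the minus strand for *Mki67*, chr11:99024140-99024439 on the minus strand for *Top2a* and chr11:43425932-43426231 on the minus strand for *Pttg1*.
Ccnb1: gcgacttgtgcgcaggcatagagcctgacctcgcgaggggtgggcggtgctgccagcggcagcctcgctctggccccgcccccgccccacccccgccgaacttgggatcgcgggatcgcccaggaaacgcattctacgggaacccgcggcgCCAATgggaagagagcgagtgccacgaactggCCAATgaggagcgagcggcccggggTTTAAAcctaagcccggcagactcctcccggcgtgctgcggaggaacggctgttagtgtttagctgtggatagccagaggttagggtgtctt
Birc5: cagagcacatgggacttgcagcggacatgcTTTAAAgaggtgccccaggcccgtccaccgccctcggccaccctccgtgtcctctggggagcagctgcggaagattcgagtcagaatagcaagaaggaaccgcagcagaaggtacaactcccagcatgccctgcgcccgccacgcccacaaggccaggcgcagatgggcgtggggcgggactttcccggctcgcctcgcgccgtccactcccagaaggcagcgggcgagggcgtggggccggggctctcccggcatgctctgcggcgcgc
Nek2: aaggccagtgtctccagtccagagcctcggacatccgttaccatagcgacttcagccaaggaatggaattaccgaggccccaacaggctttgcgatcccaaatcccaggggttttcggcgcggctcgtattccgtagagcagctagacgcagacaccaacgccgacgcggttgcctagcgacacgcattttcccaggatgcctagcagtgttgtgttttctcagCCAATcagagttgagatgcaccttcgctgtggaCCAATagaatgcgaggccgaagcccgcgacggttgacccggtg
Mki67: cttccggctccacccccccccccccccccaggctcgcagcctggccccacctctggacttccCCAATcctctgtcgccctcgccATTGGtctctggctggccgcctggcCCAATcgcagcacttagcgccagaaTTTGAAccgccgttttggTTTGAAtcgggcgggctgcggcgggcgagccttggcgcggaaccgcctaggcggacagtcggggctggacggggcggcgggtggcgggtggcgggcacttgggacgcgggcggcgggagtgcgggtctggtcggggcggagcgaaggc
Top2a: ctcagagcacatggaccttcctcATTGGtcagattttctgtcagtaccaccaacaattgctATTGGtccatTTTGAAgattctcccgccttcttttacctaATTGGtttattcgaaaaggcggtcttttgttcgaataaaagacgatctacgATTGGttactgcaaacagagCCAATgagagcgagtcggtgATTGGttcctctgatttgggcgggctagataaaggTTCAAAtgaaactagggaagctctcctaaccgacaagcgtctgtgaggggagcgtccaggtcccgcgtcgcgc
Pttg1: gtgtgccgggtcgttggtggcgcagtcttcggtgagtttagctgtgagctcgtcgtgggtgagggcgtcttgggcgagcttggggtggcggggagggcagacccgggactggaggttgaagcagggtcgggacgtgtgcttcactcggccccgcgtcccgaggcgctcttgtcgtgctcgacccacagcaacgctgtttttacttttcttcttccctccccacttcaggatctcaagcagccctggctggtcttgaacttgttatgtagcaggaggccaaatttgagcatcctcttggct

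DNA replication followed the mitosis genes at smaller size. All 50 genes were tested, 41 were higher in WT-tFCI and 0 higher in miKO-Sham (median log2 fold change -1.48). Against WT-Sham, 40 were higher in WT-tFCI, and in miKO-Sham 15 were higher and 1 lower. *Mcm5*, a subunit of the replicative helicase, had 86.9, 129 and 104 CPM in WT-tFCI against 19.6, 15.4 and 14.1 CPM in miKO-Sham and 12.3, 9.41 and 10.3 CPM in WT-Sham, and miKO-Sham was not called against WT-Sham. *Uhrf1*, which helps to copy DNA methylation (-4.41), *Rrm2*, a ribonucleotide reductase subunit (-3.95), and *Ccne1*, cyclin E1 (-3.82), had the lowest log2 fold changes among those named by the rule. *Gins1*, a subunit of the GINS complex of the replication fork, was among the members within 2-fold between the groups, with 16.7, 15.5 and 16.1 CPM in miKO-Sham, 17.7, 26.9 and 21.9 CPM in WT-tFCI, with 4.81, 5.15 and 4.82 CPM in WT-Sham. Its log2 fold change in the direct comparison was -0.44 with an interval from -0.88 to 0.01, and it was called with the libraries of batch 2 alone.

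Among secreted signals, chemokines were divided gene by gene. Of 33 chemokine ligands 24 were tested, 14 were higher in WT-tFCI and 3 higher in miKO-Sham (median -1.07). Against WT-Sham, 18 were higher and 1 lower in WT-tFCI, and 10 were higher and 2 lower in miKO-Sham. *Ccl2*, which attracts monocytes, had 221, 207 and 167 CPM in miKO-Sham, 199, 259.8 and 218 CPM in WT-tFCI, with 63.7, 48.6 and 45.6 CPM in WT-Sham. The groups of the direct comparison overlapped, with a log2 fold change of -0.19 and an interval from -0.57 to 0.19. *Ccl3*, another attractant of myeloid cells, also overlapped with 1638, 1664 and 927 CPM in miKO-Sham and 1569.7, 2110.1 and 2000.1 CPM in WT-tFCI. *Ccl4*, its neighbour, had 2137, 2168 and 1227 CPM in miKO-Sham and 2807, 3804 and 3415 CPM in WT-tFCI and was called (log2 fold change -0.87 ± 0.26), a call lost without miKO-Sham replicate 3, WT-tFCI replicate 2 or WT-tFCI replicate 3. *Ccl7*, a monocyte attractant next to *Ccl2* on chromosome 11, was the chemokine raised in both states and higher in miKO-Sham, with 97.2, 89.8 and 107 CPM against 65.6, 64.3 and 49.6 CPM in WT-tFCI, with 20.3, 19.0 and 18.6 CPM in WT-Sham. *Ccl24*, an eotaxin, had 31.9, 33.2 and 24.5 CPM in miKO-Sham and 2.87, 4.73 and 5.0 CPM in WT-tFCI, above and below the 9.02, 9.52 and 9.95 CPM of WT-Sham, and both calls against WT-Sham passed. *Ccl27a*, at no more than 3.75 CPM, was not called in 14 of 19 alternatives.

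Chemokines that were high in WT-tFCI and not in miKO-Sham included the interferon-inducible *Cxcl10*, which attracts T cells through CXCR3, with 251, 397 and 385 CPM in WT-tFCI against 18.9, 22.3 and 18.7 CPM in miKO-Sham and 26.4, 37.8 and 34.9 CPM in WT-Sham. The knockout libraries were called below WT-Sham, and the direct log2 fold change was -4.09 ± 0.18 (edgeR, Benjamini-Hochberg adjusted p = 2.36e-09). *Cxcl1*, a neutrophil attractant, had 46.8, 16.4 and 14.5 CPM in WT-tFCI against 0.833, 0.555 and 3.46 CPM in miKO-Sham, and its log2 fold change of -3.78 was -3.06 without miKO-Sham replicate 1 and -5.30 without replicate 3. *Ccl9* had 14.4, 11.7 and 28.1 CPM in miKO-Sham against 179, 176 and 149 CPM in WT-tFCI, with 143, 124 and 105 CPM in WT-Sham, so that here the distance came from a fall in the knockout and WT-tFCI was not called against WT-Sham. Monocyte markers summed to 49.4 to 96.2 CPM in miKO-Sham and 55.7 to 199.6 CPM in WT-tFCI. Of the 7 markers, 2 (28.6%, against 18.3% of all genes tested) were called higher in WT-tFCI, and their part in the result was not tested. That count was 1 without miKO-Sham replicate 1 or WT-tFCI replicate 1. Without miKO-Sham replicate 1, 1 marker was called higher in miKO-Sham.

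Of 40 genes of cytokines and NF-kB feedback, 38 were tested, 21 were not called between the groups, 15 were higher in WT-tFCI and 2 higher in miKO-Sham (median -0.45). *Il1b*, the gene of interleukin 1 beta, had 348, 358 and 274 CPM in miKO-Sham, 411, 531 and 491 CPM in WT-tFCI, with 50.7, 38.1 and 33.0 CPM in WT-Sham. Both groups were called above WT-Sham, and directly the log2 fold change was -0.57 with an interval from -1.08 to -0.07, which was not called but was called higher in WT-tFCI in 5 of 20 alternatives. *Tnf* had 388, 392 and 252 CPM in miKO-Sham, 382, 685 and 683 CPM in WT-tFCI, with 66.6, 93.0 and 70.3 CPM in WT-Sham. Its groups overlapped after adjustment for batch, and the call (log2 fold change -0.69 ± 0.23) rested on batch 2, with within-batch differences of 0.02 and -1.12, and was lost in 7 of 20 alternatives, among them those without miKO-Sham replicate 2 or 3 and without WT-tFCI replicate 2 or 3. *Tnfaip2*, a TNF-induced gene, was higher in miKO-Sham, with 212, 224 and 146 CPM in miKO-Sham and 36.6, 31.5 and 41.4 CPM in WT-tFCI. *Il6* had 9.58, 7.21 and 10.4 CPM in miKO-Sham and 4.19, 2.19 and 3.78 CPM in WT-tFCI; it was not called in the knockout against WT-Sham and was lower than WT-Sham after stroke. *Ptgs2*, the inducible cyclooxygenase, and *Tnfsf9*, a ligand of the TNF family, had log2 fold changes of -3.95 ± 0.51 and -3.56 ± 0.30 (-3.33 for *Ptgs2* without miKO-Sham replicate 1) and were not called between miKO-Sham and WT-Sham.

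Genes of the type I interferon response were higher in WT-tFCI or not called. All 43 genes were tested, 31 were higher in WT-tFCI and 0 higher in miKO-Sham (median -1.29). Against WT-Sham, 36 were higher in WT-tFCI (median 2.12), and in miKO-Sham 19 were higher and 2 lower (median 0.70). *Isg15*, a ubiquitin-like interferon target, had 28.8, 31.4 and 38.0 CPM in WT-tFCI against 11.1, 9.57 and 6.79 CPM in miKO-Sham and 4.93, 4.82 and 2.67 CPM in WT-Sham, which ordered the 3 groups without overlap. *Ifi27l2a* had 312, 317 and 289 CPM in WT-tFCI against 34.3, 24.7 and 27.5 CPM in miKO-Sham, and *Rsad2*, the antiviral protein viperin, had 24.9, 42.2 and 39.2 CPM in WT-tFCI against 3.33, 4.99 and 5.12 CPM in miKO-Sham. *Bst2*, tetherin, was near the stroke level in the knockout, with 179.5, 181 and 160.5 CPM in miKO-Sham, 209, 249.6 and 245 CPM in WT-tFCI, with 84.0, 86.5 and 65.1 CPM in WT-Sham, and *Usp18*, the negative regulator of interferon signalling, overlapped between the groups, with 23.5, 23.7 and 40.1 CPM in miKO-Sham and 30.0, 43.5 and 50.3 CPM in WT-tFCI.

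Antigen presentation was mixed. Of 18 class I and immunoproteasome genes 6 were higher in WT-tFCI and 1 higher in miKO-Sham (median -0.38), where the class I gene *H2-D1* had 3275, 3229 and 3218 CPM in miKO-Sham and 2016, 2011 and 2070.0 CPM in WT-tFCI, and *Nlrc5*, the class I transactivator, was higher in WT-tFCI, with 5.41, 6.66 and 13.8 CPM in miKO-Sham and 16.2, 19.7 and 21.3 CPM in WT-tFCI. The count of 6 was 2 without WT-tFCI replicate 2 or 3 and 3 without miKO-Sham replicate 1 or WT-Sham replicate 2 or 3. Reads of the near-identical class I genes can be split between copies, so their values are uncertain. For the 10 class II genes the direction depended on the libraries. The median log2 fold change was 0.64 with 2 higher in miKO-Sham (*H2-DMb2* and *Cd74*) and 1 higher in WT-tFCI (*H2-Oa*), and it turned to -0.17 without miKO-Sham replicate 3 and to -0.27 without the batch term. Without miKO-Sham replicate 1, or with the libraries of batch 2 only, 6 were called higher in miKO-Sham, and the median without that replicate was 1.17. Without miKO-Sham replicate 3 or WT-tFCI replicate 3 1 was, and without WT-tFCI replicate 1 the members higher in WT-tFCI were 2. *Cd74*, the invariant chain, had 352, 346 and 789 CPM in miKO-Sham and 634, 126 and 117 CPM in WT-tFCI, so that replicate 3 was the highest in the knockout, replicate 1 was the highest in WT-tFCI, and the groups overlapped. Its call (log2 fold change 1.44 ± 0.54) was lost in 9 of 20 alternatives, with 0.63 without miKO-Sham replicate 3, 2.12 without replicate 1, and further losses without WT-tFCI replicate 2 or 3. *H2-DMb2*, a chaperone of class II loading, was more even, with 29.8, 28.9 and 28.8 CPM in miKO-Sham and 18.8, 11 and 7.80 CPM in WT-tFCI. Dendritic cell markers summed to 12.2 to 13.6 CPM in miKO-Sham and 15.6 to 107 CPM in WT-tFCI, highest in WT-tFCI replicate 1, and border-associated macrophage markers to 74.9 to 307 CPM in miKO-Sham and 175 to 269 CPM in WT-tFCI, highest in miKO-Sham replicate 3. Their part in the class II values was not tested.

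Some receptors of complement and of phagocytosis were above the stroke level in miKO-Sham. In the complement list, 14 of 16 genes were tested, and 2 (14.3%) were higher in miKO-Sham and 3 (21.4%) higher in WT-tFCI (median -0.08). These shares are near the 11.6% and 18.3% of all genes tested. The 2 were the anaphylatoxin receptors. *C3ar1* had 1408, 1386 and 1136 CPM in miKO-Sham, 498, 655 and 586 CPM in WT-tFCI, with 331, 284 and 304 CPM in WT-Sham, and *C5ar1* had 908, 890.1 and 982 CPM in miKO-Sham, 305, 486 and 508 CPM in WT-tFCI, with 151, 163 and 188 CPM in WT-Sham. Both were raised in both states and highest in the knockout. *C4b*, a complement component, had 2.36, 1.25 and 28.9 CPM in miKO-Sham, where replicate 3 stood apart, and 60.0, 82.6 and 94.9 CPM in WT-tFCI (log2 fold change -2.93, -5.37 without that replicate). *Serping1*, the C1 inhibitor, had 0.555, 0.555 and 1.67 CPM in miKO-Sham and 29.3, 4.27 and 6.58 CPM in WT-tFCI (log2 fold change -3.46, -2.34 without miKO-Sham replicate 1 and -4.73 without replicate 3). *Cd59a*, which blocks the membrane attack complex, was not called in 13 of 19 alternatives. Of 32 phagocytic and scavenger receptors 30 were tested, with 7 (23.3%) higher in miKO-Sham and 7 (23.3%) higher in WT-tFCI (median -0.02), the latter 4 without miKO-Sham replicate 1. *Cd300a*, an inhibitory receptor for phosphatidylserine, had 889, 783 and 726 CPM in miKO-Sham, 129.6, 127 and 122 CPM in WT-tFCI, with 262, 252 and 252 CPM in WT-Sham, called above the reference in the knockout and below it after stroke. *Scarb1*, a receptor for high-density lipoprotein, had 242, 247 and 202 CPM in miKO-Sham and 85.6, 92.4 and 103 CPM in WT-tFCI and was raised in both states. *Msr1*, the scavenger receptor A, went the other way, with 16.4, 15.8 and 24.6 CPM in miKO-Sham, 85.1, 189.7 and 164 CPM in WT-tFCI, with 6.25, 2.58 and 4.10 CPM in WT-Sham. *Fcgr4*, an activating Fc receptor, was close, with 78.6, 78.5 and 58.0 CPM in miKO-Sham and 82.2, 110.2 and 101.4 CPM in WT-tFCI, against 19.5, 13 and 10.2 CPM in WT-Sham.

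Part of the lysosomal genes were called higher than in WT-Sham in each state. All 36 genes were tested. Against WT-Sham, 20 were higher in WT-tFCI and 18 higher in miKO-Sham, with 0 lower in either (medians 0.62 and 0.60). Over all genes tested, 20.9% were higher in WT-tFCI and 8.58% higher in miKO-Sham. Directly, 7 were higher in miKO-Sham and 8 higher in WT-tFCI (median -0.12). *Ctss*, cathepsin S, had 15993, 15434 and 15380.5 CPM in miKO-Sham, 4426, 4851 and 4463 CPM in WT-tFCI, with 4863, 4960.1 and 5170.2 CPM in WT-Sham, raised in the knockout and not called after stroke. *Psap*, which encodes the saposins, had 6995, 6849 and 6019.6 CPM in miKO-Sham and 3278, 3253 and 3465 CPM in WT-tFCI. The enzyme genes *Gusb* (-1.69) and *Gla* (-1.50) had negative log2 fold changes, and *Gusb* had 749, 973 and 952 CPM in WT-tFCI against 266, 240.1 and 314 CPM in miKO-Sham and 263, 311 and 322 CPM in WT-Sham, so that it rose after stroke and was not called after loss of HDAC3. *Ctsz*, cathepsin Z, was raised in both states, with 6102, 5970.1 and 5834 CPM in miKO-Sham and 4120.2, 5249.5 and 4856 CPM in WT-tFCI, and its interval ran from -0.02 to 0.70. With *Atp6v0d2*, which had 0 counts in every WT-Sham library, set at its bound, the medians against WT-Sham were 0.62 and 0.59.

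Most called genes of the list of sterol efflux and LXR targets were higher in miKO-Sham. Of 16 sterol efflux and LXR target genes 15 were tested, 5 were higher in miKO-Sham and 2 higher in WT-tFCI (median 0.17). Besides *Apoc1* and *Apoc4* these were *Abca1*, *Mylip* and *Lpcat3*, a phospholipid enzyme. *Abca1*, the cholesterol efflux pump, had 967, 985 and 504 CPM in miKO-Sham and 459, 499.8 and 511 CPM in WT-tFCI, with 419, 314 and 284 CPM in WT-Sham. *Mylip*, an LXR-induced ubiquitin ligase, had 515, 501 and 411 CPM in miKO-Sham and 119.8, 135 and 132 CPM in WT-tFCI, with 222, 218 and 221 CPM in WT-Sham. The call of *Abca1* (log2 fold change 0.73 ± 0.24) was lost in 7 of 20 alternatives, among them those without miKO-Sham replicate 1 or 2 and without WT-tFCI replicate 1 or 2. *Abcg2*, an efflux pump for xenobiotics, had 15.1, 12.9 and 16.1 CPM in miKO-Sham and 47.4, 47.2 and 41.8 CPM in WT-tFCI, where the low value was that of the knockout. In cholesterol synthesis, 21 of 23 genes were tested, with 4 higher in miKO-Sham and 1 higher in WT-tFCI (median 0.02). Of all genes tested 11.6% were higher in miKO-Sham and 18.3% higher in WT-tFCI. The 1 list member higher in WT-tFCI was 0 without miKO-Sham replicate 1 or any of the WT-tFCI libraries. Of 22 genes of fatty acid uptake and lipid droplets 20 were tested, 5 were higher in WT-tFCI and 0 higher in miKO-Sham (median -0.20), against 18.3% and 11.6% of all genes tested. The 5 were 3 without miKO-Sham replicate 1 or WT-tFCI replicate 1, and members were called higher in miKO-Sham without miKO-Sham replicate 3 (2), miKO-Sham replicate 2 (1) or WT-Sham replicate 1 (1). *Hilpda*, a hypoxia-induced droplet protein, had 60.7, 41.2 and 41.8 CPM in WT-tFCI against 11.4, 12.1 and 9.99 CPM in miKO-Sham, with 14.2, 11.2 and 9.23 CPM in WT-Sham. *Plin2*, the coat protein of lipid droplets, was raised in both states, with 961, 1002 and 355 CPM in miKO-Sham, 792, 991 and 911 CPM in WT-tFCI, with 56.4, 48.0 and 57.5 CPM in WT-Sham, and miKO-Sham replicate 3 was the lowest of the 6.

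Genes of energy metabolism leaned to WT-tFCI. All 32 genes of glycolysis and hypoxia were tested, 13 were higher in WT-tFCI and 3 higher in miKO-Sham (median -0.48). *Ldha*, lactate dehydrogenase A, had 921, 887 and 838 CPM in WT-tFCI against 284, 281 and 301 CPM in miKO-Sham and 294, 284 and 246 CPM in WT-Sham. The last 2 groups were not called apart, and the direct log2 fold change was -1.61 ± 0.14 (edgeR, Benjamini-Hochberg adjusted p = 7.71e-07). *Adm*, the hypoxia-induced peptide adrenomedullin (-4.39), and *Ndrg1* (-2.37) also had negative values, where *Adm*, with few counts in the knockout, ranged from -4.99 without miKO-Sham replicate 3 to -3.78 without replicate 1. *Slc2a6*, a glucose transporter-like protein of lysosomes, and *Eno1*, the common enolase, were raised in both states, and *Slc2a6* had 126, 122 and 100.3 CPM in miKO-Sham, 102, 133 and 134 CPM in WT-tFCI, with 2.28, 2.13 and 3.08 CPM in WT-Sham. Of 42 oxidative phosphorylation genes, all tested, 17 were higher in WT-tFCI and 0 higher in miKO-Sham (median -0.50), against 18.3% and 11.6% of all genes tested. *Cox6c* had 203, 129.7 and 121 CPM in WT-tFCI against 73.3, 84.5 and 39.2 CPM in miKO-Sham. The count of 17 was 10 without miKO-Sham replicate 1, 11 without WT-tFCI replicate 2 and 6 with no batch term. In serine synthesis and ATF4 targets, with all 22 tested, 8 were higher in WT-tFCI and 1 higher in miKO-Sham (2 without miKO-Sham replicate 3). *Phgdh*, which opens serine synthesis, had 258, 312 and 318 CPM in WT-tFCI against 59.4, 66.0 and 88.6 CPM in miKO-Sham and 154, 144 and 142 CPM in WT-Sham, on opposite sides of the reference with both calls passing.

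Genes of oxidative stress leaned to miKO-Sham. All 23 genes of the NRF2 and metal list were tested, 10 were higher in miKO-Sham and 3 higher in WT-tFCI (median 0.40). Against WT-Sham, 18 were higher in miKO-Sham and 16 higher in WT-tFCI, with 0 lower in either. Over all genes tested, 8.58% were higher in miKO-Sham and 20.9% higher in WT-tFCI. *Osgin1*, an oxidative stress-induced growth inhibitor, had 73.6, 76.6 and 54.8 CPM in miKO-Sham, 12.1, 9.81 and 12.4 CPM in WT-tFCI, with 8.65, 13.7 and 9.13 CPM in WT-Sham. *G6pdx* and *Taldo1*, enzymes of the pentose phosphate pathway, had log2 fold changes of 1.07 ± 0.15 and 0.94 ± 0.13. *Prdx1* and *Srxn1*, which reduce peroxides and peroxiredoxins, were at like levels, with 655, 638 and 375 CPM in miKO-Sham and 641, 562 and 495 CPM in WT-tFCI for *Prdx1*, and 25.4, 28.3 and 24.3 CPM in miKO-Sham and 26.7, 23.4 and 19.3 CPM in WT-tFCI for *Srxn1*, both raised against WT-Sham. Higher in WT-tFCI were *Slc39a14*, a zinc and iron importer, *Txn1*, thioredoxin, and *Hmox1*, heme oxygenase 1, the last with 202, 223 and 253 CPM in WT-tFCI against 125, 138 and 80.7 CPM in miKO-Sham. Erythroid markers summed to 21.9 to 68.4 CPM in miKO-Sham and 6.21 to 31.5 CPM in WT-tFCI. Of the 5, 3 (60%, against 11.6% of all genes tested) were called higher in miKO-Sham, and their part was not tested. That count was 1 without miKO-Sham replicate 1 and 0 without miKO-Sham replicate 2 or WT-tFCI replicate 2 or 3.

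In ribosome biogenesis and *Myc*, all 28 genes were tested, 4 were higher in miKO-Sham and 3 higher in WT-tFCI, shares near or below those of all genes. The 4 were 0 without miKO-Sham replicate 1 and 2 without miKO-Sham replicate 3 or WT-tFCI replicate 2 or 3, and the 3 were 1 without WT-tFCI replicate 2. *Myc*, the growth transcription factor, had 83.2, 86.6 and 80.1 CPM in miKO-Sham and 44.6, 59.0 and 54.8 CPM in WT-tFCI (log2 fold change 0.67 ± 0.15). That call was lost in 3 alternatives, among them that without miKO-Sham replicate 1. Immediate early genes were on both sides. All 27 were tested, 11 were higher in miKO-Sham and 9 higher in WT-tFCI (median 0.37), and against WT-Sham 15 were lower and 8 higher in WT-tFCI and 11 lower and 1 higher in miKO-Sham. *Dusp1*, a phosphatase of MAP kinases, had 3646, 3481 and 4253 CPM in miKO-Sham, 1113, 1276 and 1319 CPM in WT-tFCI, with 3666, 4060.3 and 5149 CPM in WT-Sham. *Gadd45b*, a stress gene, had 119, 117 and 131 CPM in WT-tFCI against 26.2, 20.5 and 21.9 CPM in miKO-Sham. The heat shock genes *Hspa1a* and *Hspa1b*, near-identical copies with uncertain counts, were lower than in WT-Sham in both states and lowest after stroke, with log2 fold changes in the direct comparison of 2.48 and 2.39. *Egr1* had 1064, 1016 and 1511 CPM in miKO-Sham and 1177, 1332 and 1422 CPM in WT-tFCI, both below the 2191, 3516 and 3709 CPM of WT-Sham.

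Most matrix genes were higher in WT-tFCI. All 29 were tested, 23 were higher in WT-tFCI and 2 higher in miKO-Sham (median -2.80, and -3.57 without miKO-Sham replicate 3). *Fn1*, fibronectin, had 446, 296 and 365 CPM in WT-tFCI against 3.05, 2.22 and 12.3 CPM in miKO-Sham and 3.25, 2.35 and 0.205 CPM in WT-Sham. The collagen gene *Col3a1* had 221, 49.3 and 64.0 CPM in WT-tFCI against 0.278, 0.139 and 1.41 CPM in miKO-Sham, and *Dcn*, the proteoglycan decorin, had 376, 96.6 and 88.0 CPM in WT-tFCI against 2.64, 1.53 and 3.59 CPM in miKO-Sham. In *Col3a1*, *Dcn*, *Col4a1* (79.0, 22.4 and 20.8 CPM in WT-tFCI) and *Emp1*, an epithelial membrane protein (39.4, 15.6 and 13.4 CPM in WT-tFCI), WT-tFCI replicate 1 was far above replicates 2 and 3, whereas *Fn1* was even. All 6 endothelial markers were called higher in WT-tFCI (100%, against 18.3% of all genes tested). Their sums followed the same order, with 169, 60.6 and 60.2 CPM in WT-tFCI replicates 1 to 3 and 12.3 to 18.7 CPM in miKO-Sham. Their part in the values of the matrix genes was not tested. Without WT-tFCI replicate 1 the log2 fold changes were -6.85 for *Col3a1*, -5.61 for *Dcn* and -6.00 for *Fn1*, close to the -7.24, -5.89 and -5.88 with it. Without miKO-Sham replicate 3, the highest of its group, they were -9.12, -6.61 and -7.34, and without miKO-Sham replicate 1 they were -6.27, -5.24 and -5.31. That of *Emp1* moved from -5.65 to -4.89 without miKO-Sham replicate 1. With *Mmp3*, which had 0 counts in every miKO-Sham library, at its bound, the median was -2.80. The 2 genes on the other side were *Mmp2*, a gelatinase, with 247, 226 and 143 CPM in miKO-Sham, 54.9, 44.3 and 44.0 CPM in WT-tFCI, with 36.4, 33.5 and 40.2 CPM in WT-Sham, and *Plaur*, the urokinase receptor, with 219, 222 and 185 CPM in miKO-Sham, 114, 137 and 138 CPM in WT-tFCI, with 37.1, 34.2 and 31.3 CPM in WT-Sham. *Mmp12*, the macrophage elastase, was raised in both states and overlapped, with 9.16, 9.99 and 3.84 CPM in miKO-Sham and 12.9, 10.2 and 6.94 CPM in WT-tFCI.

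Growth factors and the cytoskeletal list also leaned to WT-tFCI. Of 25 growth factors 21 were tested, 10 were higher in WT-tFCI and 2 higher in miKO-Sham (median -1.17, and -1.15 with the 2 members at 0 counts in every miKO-Sham library at their bounds). The 2 were 1 without miKO-Sham replicate 1 or 2 or any of the WT-tFCI libraries. *Vegfa*, the endothelial growth factor, had 44.9, 8.77 and 9.50 CPM in WT-tFCI against 1.39, 2.5 and 2.95 CPM in miKO-Sham, again highest in WT-tFCI replicate 1 (log2 fold change -2.79, -1.92 without miKO-Sham replicate 1 and -1.67 within batch 2). *Pdgfb*, a platelet-derived growth factor chain, had 249, 254 and 186 CPM in miKO-Sham and 118, 106 and 118 CPM in WT-tFCI. *Gdf15*, a stress-induced factor, was raised in both states and overlapped, with 33.7, 41.1 and 23.8 CPM in miKO-Sham and 29.7, 39.5 and 42.3 CPM in WT-tFCI. Of 31 annexin, S100 and cytoskeletal genes 30 were tested, 19 were higher in WT-tFCI and 1 higher in miKO-Sham (median -1.03), the latter 2 without miKO-Sham replicate 1 or WT-Sham replicate 1. *Anxa2*, annexin A2, had 309, 156 and 143 CPM in WT-tFCI against 12.4, 9.99 and 9.09 CPM in miKO-Sham, and *Vim*, vimentin, had 299, 134 and 128 CPM in WT-tFCI against 9.44, 9.85 and 11.4 CPM in miKO-Sham, both highest in WT-tFCI replicate 1. Astrocyte markers summed to 264, 170 and 164 CPM in WT-tFCI replicates 1 to 3, 108 to 129 CPM in miKO-Sham and 180 to 192 CPM in WT-Sham. *Slc1a3* was the largest in every library, with 184, 174 and 181 CPM in WT-Sham. It had 117, 96.3 and 112 CPM in miKO-Sham and 99.9, 120 and 114 CPM in WT-tFCI. *Gfap* had 79.4, 29.1 and 30.6 CPM in WT-tFCI against at most 2.82 CPM in miKO-Sham and 0.448 CPM in WT-Sham. Against WT-Sham, 3 of the 6 markers were higher and 1 lower in WT-tFCI. Directly, 3 (50%, against 18.3% of all genes tested) were called higher in WT-tFCI and 0 higher in miKO-Sham. Their part in the values of this list was not tested. *Anxa3*, the exception, had 1074, 1043 and 1127 CPM in miKO-Sham, 425, 509 and 451 CPM in WT-tFCI, with 362, 445 and 453 CPM in WT-Sham and was not called after stroke.

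**Figure D3:**
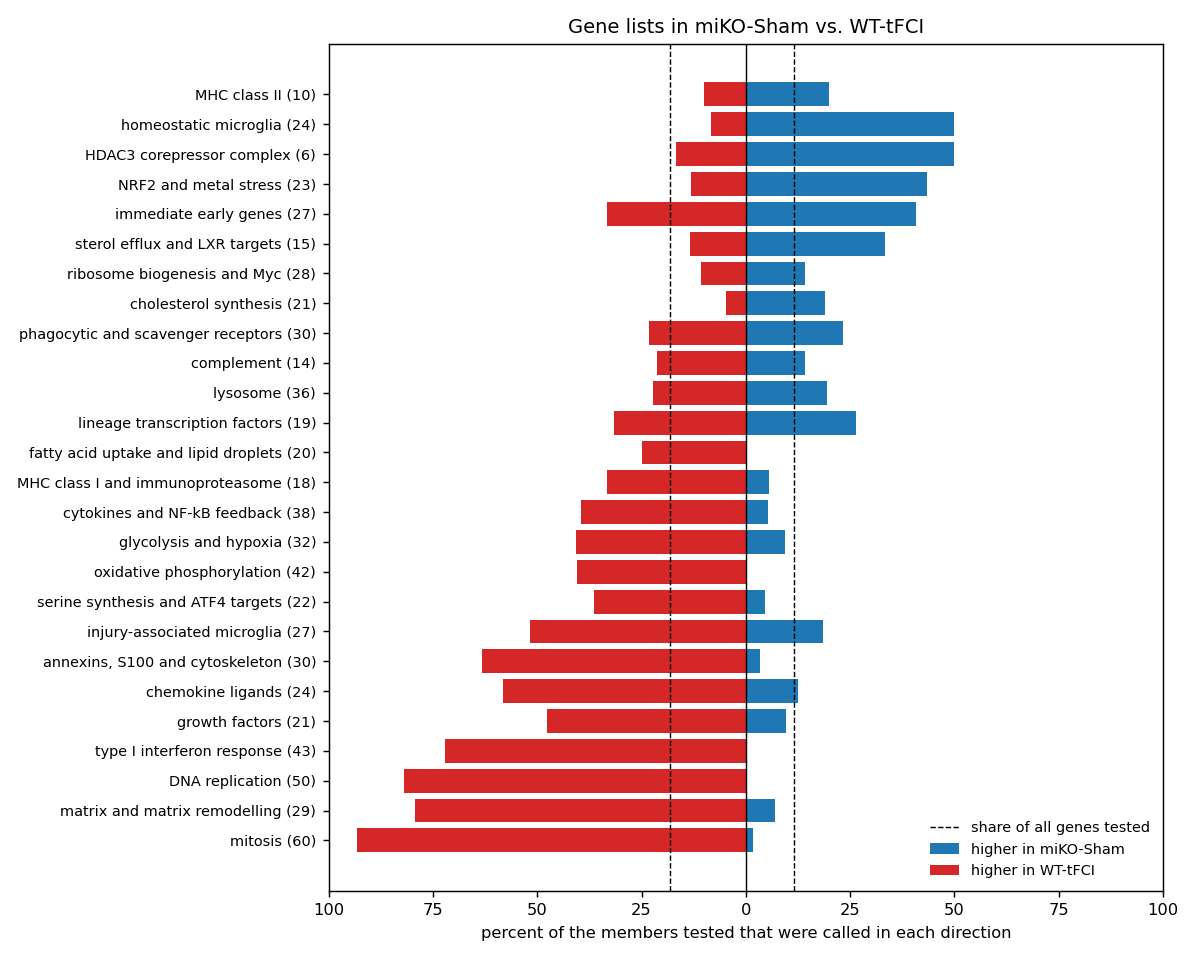
Percent of the tested members of 26 gene lists (number tested in brackets) called higher in miKO-Sham (blue, right) or higher in WT-tFCI (red, left) in the direct comparison, ordered by the median log2 fold change. Dashed lines mark the shares over all genes tested, 11.6% and 18.3%; the mitosis, DNA replication, matrix and interferon bars reach furthest left, and the homeostatic, HDAC3 complex and NRF2 bars furthest right.

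**Figure D4:**
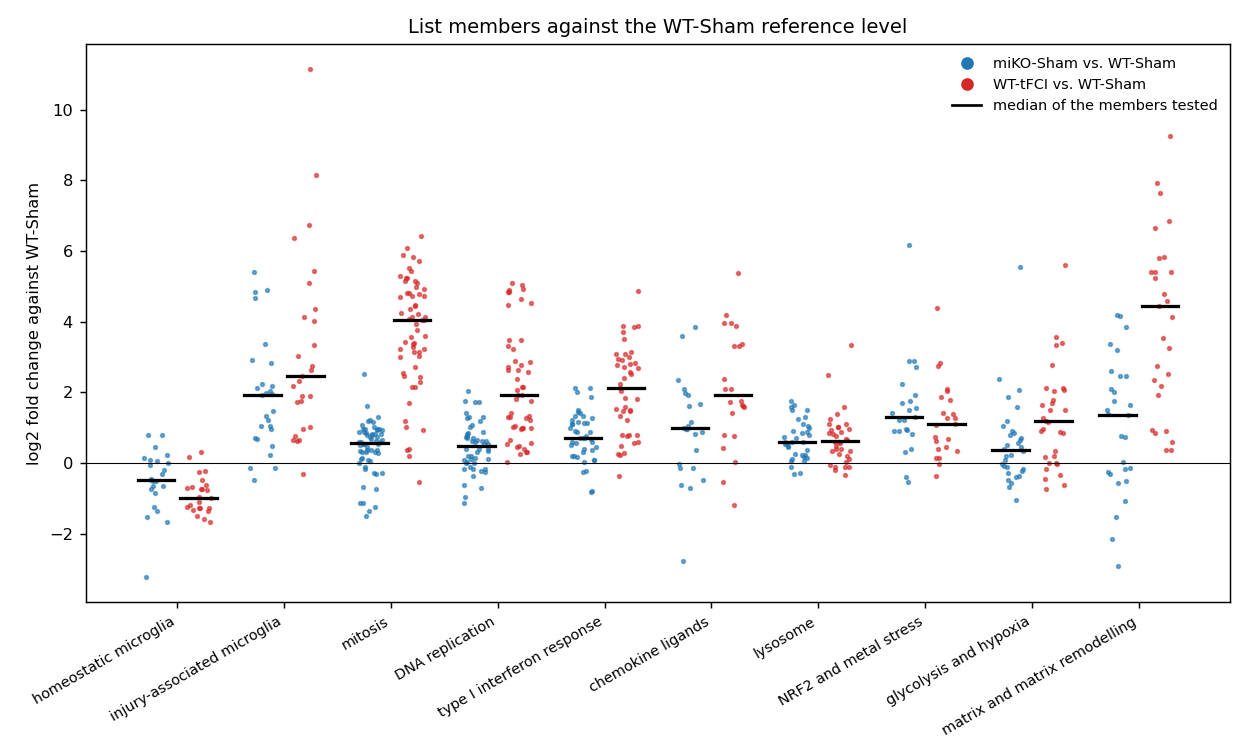
Log2 fold change against WT-Sham of each tested member of 10 lists, for miKO-Sham (blue) and WT-tFCI (red), with the median of all tested members as a bar; *Ccl11*, *Atp6v0d2* and *Mmp3*, at 0 counts in every WT-Sham library, are not drawn. The 2 medians lie close for lysosome and NRF2 genes and far apart for mitosis and matrix genes; both sets of values share the WT-Sham libraries.

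The genes at like levels in the 2 states were taken from those called after stroke whose direct interval lay within -1 and 1, so the closeness is how they were chosen and is given without a test. The 6 most raised were *Slc2a6*, *Cst7* and *Plin2*, given above, and *Adgb*, *Tspan17* and *Pstpip1*. *Tspan17*, a tetraspanin, had 9.16, 8.19 and 4.23 CPM in miKO-Sham, 9.58, 6.58 and 7.19 CPM in WT-tFCI, with 0.841, 1.23 and 0.923 CPM in WT-Sham, and *Pstpip1*, a cytoskeletal adaptor of leukocytes, had 21.4, 19.6 and 13.6 CPM in miKO-Sham, 26.6, 25.6 and 21.6 CPM in WT-tFCI, with 4.57, 3.03 and 2.98 CPM in WT-Sham. *Adgb* was low throughout, with 8.05, 5.27 and 3.33 CPM in miKO-Sham and 3.83, 6.93 and 7.07 CPM in WT-tFCI, and its interval, from -0.97 to 0.92, nearly filled the range allowed. *Pstpip1* was called higher in WT-tFCI in 4 of 20 alternatives, and, of the close genes given above, *Usp18* was called in 2 and *Cst7*, *Ccl3* and *Fcgr4* in 1 each. The 4 most lowered were *Gprasp1*, *Bank1*, *Klhdc8b* and *Cass4*. *Bank1*, a signalling adaptor, had 14.0, 15.3 and 26.3 CPM in miKO-Sham, 15, 16.7 and 15.6 CPM in WT-tFCI, with 47.1, 65.7 and 78.6 CPM in WT-Sham, and *Gprasp1*, a sorting protein for receptors, had 16.8, 16.2 and 17.7 CPM in miKO-Sham, 16.5, 11.9 and 12.4 CPM in WT-tFCI, with 45.8, 57.3 and 57.6 CPM in WT-Sham. In *Bank1* and *Gprasp1* both states sat well below the WT-Sham range. *Klhdc8b* had 18.9, 26.9 and 24.8 CPM in miKO-Sham and 39.6, 27.8 and 23.6 CPM in WT-tFCI. *Cass4* had 8.75, 8.46 and 17.9 CPM in miKO-Sham and 11.3, 8.54 and 12.2 CPM in WT-tFCI.

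**Figure D5:**
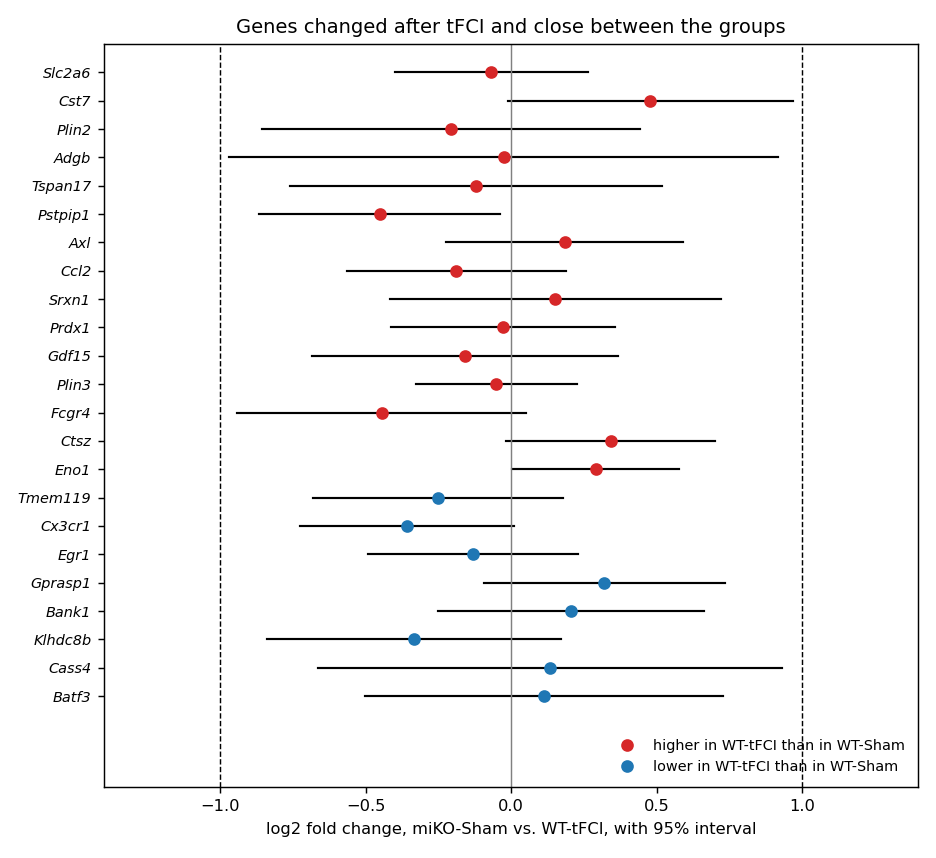
Direct log2 fold change (points) with 95% interval (lines) of 23 genes called after stroke whose interval lies within -1 and 1 (dashed lines); red genes were higher and blue genes lower in WT-tFCI than in WT-Sham. The intervals of *Slc2a6* and *Plin3* are among the narrow ones and that of *Adgb* is the widest shown.

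The corepressor complex of HDAC3 closed the comparison. All 6 genes were tested, 3 were higher in miKO-Sham and *Hdac3* was higher in WT-tFCI (median 0.45). *Tbl1xr1*, an exchange factor of the complex, had 109, 112 and 109.5 CPM in miKO-Sham, 50.7, 61.4 and 47.0 CPM in WT-tFCI, with 72.1, 73.2 and 69.9 CPM in WT-Sham, and its relative *Tbl1x* had 155, 146 and 137 CPM in miKO-Sham, 86.3, 76.8 and 80.3 CPM in WT-tFCI, with 83.3, 76.1 and 80.7 CPM in WT-Sham. Both were raised in the knockout against WT-Sham. *Gps2*, a further subunit, had 117, 124 and 152 CPM in miKO-Sham, 71.6, 87.3 and 81.8 CPM in WT-tFCI, with 126, 131 and 126 CPM in WT-Sham, where the difference came from the lower level after stroke.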

How the data were processed

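RNA of sorted CD45int CD11b+ cells was sequenced from 12 libraries made with SMART-Seq v4, a kit that amplifies full-length cDNA and does not mark strand. The authors deposited raw read counts per gene, made with HTSeq on mm10 (GRCm38.p6); the submitters' notes also name FastQC 0.11.9, Trim Galore, HISAT2 2.2.1, SAMtools and HTSeq 1.99.2. Between 61.5% and 69.3% of the counted reads stood on lines that name no gene and were left out. GENCODE M21 matched 55141 of 55401 gene IDs.

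The deposited counts of all 12 libraries, 3 per group, were fitted with edgeR 4.0.16 (R 4.3.3, limma 3.58.1): TMM normalization, filterByExpr, a quasi-likelihood fit with group and sequencing batch, and Benjamini-Hochberg adjustment over all genes tested. miKO-Sham minus WT-tFCI was the contrast of interest, and WT-tFCI and miKO-Sham against WT-Sham gave the reference. CPM values are normalized but not adjusted for batch. Replicate numbers come from the labels, where replicate 1 is batch 1 and replicates 2 and 3 are batch 2. The fit was tested on simulated data with 200 changed genes. These data had no batch effect and independent libraries, so they cannot speak to the batch labels or to the closeness of miKO-Sham replicates 1 and 2. The design took the groups and batches from the labels and methods.

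The comparison and the gene lists were chosen with earlier results of these data known. Genes were named by rule: *Hdac3* and *Cx3cr1*, 8 genes at each end of the comparison, up to 3 called members per list and direction, up to 2 members per list changed after stroke with an interval within -1 and 1, the 6 most raised and 4 most lowered genes of that kind, and fixed landmarks. The called list members had to meet the same conditions as the 8 genes at each end, groups that did not overlap among them. For these genes the lack of overlap is therefore how they were picked, and it held for 51.1% of all genes tested. Members named without values complete a count and were chosen after their values were seen. Promoter windows came from RefSeq (GRCm38.p6). Alternatives were DESeq2 1.42.0, its size factors, no filter or at least 10 counts in every library, no batch term, a replicate block, fewer libraries, other fold limits, miKO-Sham replicates 1 and 2 summed as batch 2, and, added after seeing the data, replicate 2 as batch 1 and the sum as batch 1. Some genes are not reported here.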

Additional observations from a re-analysis of the deposited data

How the results depend on the processing

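Under 20 alternatives, 155 of 193 named genes stayed on the same side of the call in the direct comparison, 24 lost the call under some and 14 gained it under some. No called gene changed sign, while 15 of the 155, none of them called, did. The direct comparison called 4927 genes, and DESeq2 called 4981, of which 4763 were shared. Over the fits that each left out 1 library the count ran from 3850 (without miKO-Sham replicate 1) to 5184 (without WT-Sham replicate 1). It was 4186 with no batch term, 4120 with the libraries of batch 2 only, and 3944 or 5299 with miKO-Sham replicates 1 and 2 summed and entered as batch 2 or batch 1. With at least 10 counts in every library, the genes called higher in WT-tFCI numbered 1872 instead of 3013 against miKO-Sham and 1962 instead of 3440 against WT-Sham, since fewer genes were tested and those near 0 in a group were removed. With an absolute log2 fold change above 1, the direct comparison called 3157 genes (929 higher in miKO-Sham, 2228 higher in WT-tFCI), WT-tFCI vs. WT-Sham 3408 (777 lower) and miKO-Sham vs. WT-Sham 1527 (842 higher, 685 lower). The median of the MHC class II list reversed from 0.64 to -0.27 with no batch term and, over the fits without 1 library each, ran from -0.17 (without miKO-Sham replicate 3) to 1.17 (without miKO-Sham replicate 1); the cause was not tested. A replicate block gave 4897 direct calls, 4806 of them shared. Deviations of same-numbered miKO-Sham and WT-tFCI libraries correlated at 0.10, -0.06 and 0.12, so that the numbers were not taken to pair the samples. Low counts limit the folds of genes near 0 in a group, and the closeness of miKO-Sham replicates 1 and 2 limits every p-value.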
